A study of Mus musculus with 2 samples.

Results

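The Notch pathway and the transcription factors under its control set the choice between absorptive and secretory fate in the crypts of the small intestine. They were represented here by 10 genes, the receptors Notch1 and Notch2, the ligands Dll1, Dll4 and Jag1, the target Hes1, and the lineage factors Atoh1, Gfi1, Neurog3 and Neurod1. All probe sets annotated to a single gene symbol were taken where that symbol was 1 of the 10. All 10 genes were found, at 17 of the 34958 probe sets with a single symbol, among 18194 genes in all. Of the members, 4 had 1 probe set, 5 had 2 and Jag1 had 3.

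The CD36KO pool came from mice of the C57BL/6 background with a germline deletion of Cd36, so that the gene was lacking in every cell and not in the intestine alone, and the WT pool from mice of the same background without the deletion. All animals received chow without restriction and were kept on a 12-hour light-dark cycle, and the labels used here state no age. The upper part of the gut was taken as a whole section, and the RNA of 3 animals was pooled per genotype and hybridised to 1 Affymetrix array. Each genotype thus gives 1 reading per probe set (n = 1 per group). Variation between animals cannot be seen in a pool, no test was possible, and precision is limited by the number of arrays.

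In the crypt a cell that presents a Delta ligand activates Notch on its neighbour. The cleaved receptor enters the nucleus, joins RBPJ and induces Hes1, which represses Atoh1 and so favours the absorptive fate. Cells that escape Notch express Atoh1, the factor required for all classical secretory cells. Gfi1 acts after it on the way to goblet and Paneth cells, and Neurog3 followed by Neurod1 on the way to enteroendocrine cells.

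Cd36 read 5.87, 6.02 and 3.52 in the CD36KO pool, against 7.70, 7.68 and 4.74 in the WT pool, at its 3 probe sets. The sources used here do not place them relative to the deleted part, so the check of the labels is limited. The 9 epithelial markers measured were above the filter in both pools, with log2 differences from -0.48 (Lct) to 0.33 (Epcam) and a median of -0.06. The pools differed in other ways that bear on the members. All 5 markers of the distal small intestine were higher in CD36KO, by a median log2 difference of 3.56, although Slc10a2 and Fgf15 passed the filter described below through CD36KO alone, and all 6 of the proximal part were lower, by a median of -1.10. Pancreatic acinar markers (median 1.87), fibroblast markers (1.21) and 4 of 5 gastric markers (2.19, with Tff2 at -0.70) were higher too. These medians are over genes above a filter of 4.51 in at least 1 pool, the median over all probe sets of the higher of the CD36KO and WT values, used here to mark low signal. The 3′ minus 5′ signal of the beta-actin control was 1.34 in CD36KO and 2.28 in WT, and that of GAPDH was 0.71 in CD36KO and 1.28 in WT. All 18 hybridization control probe sets were lower in CD36KO, by a median of -0.28. The part of these differences in the results below was not tested. In RNA of whole tissue, fewer cells of a type and less RNA per cell cannot be told apart.

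Most of the members lay within 1.5-fold between the pools, among them the receptors, the ligands, Hes1, Gfi1 and Neurod1. Atoh1 was 1.79-fold higher in the CD36KO pool and was the only member probe set at least 1.5-fold higher. Neurog3 was 1.62-fold lower at 1 of its 2 probe sets, the only member probe set at least 1.5-fold lower. The other 15 lay within 1.5-fold. Over all probe sets with a single symbol, 4.4% passed 1.5-fold upward and 2.52% downward, so that a count of 1 in 17 in each direction is near the background. The median difference of the 10 genes, each at its probe set of highest mean, was -0.14 on the log2 scale, beside -0.01 over all genes.

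**Figure D1:**
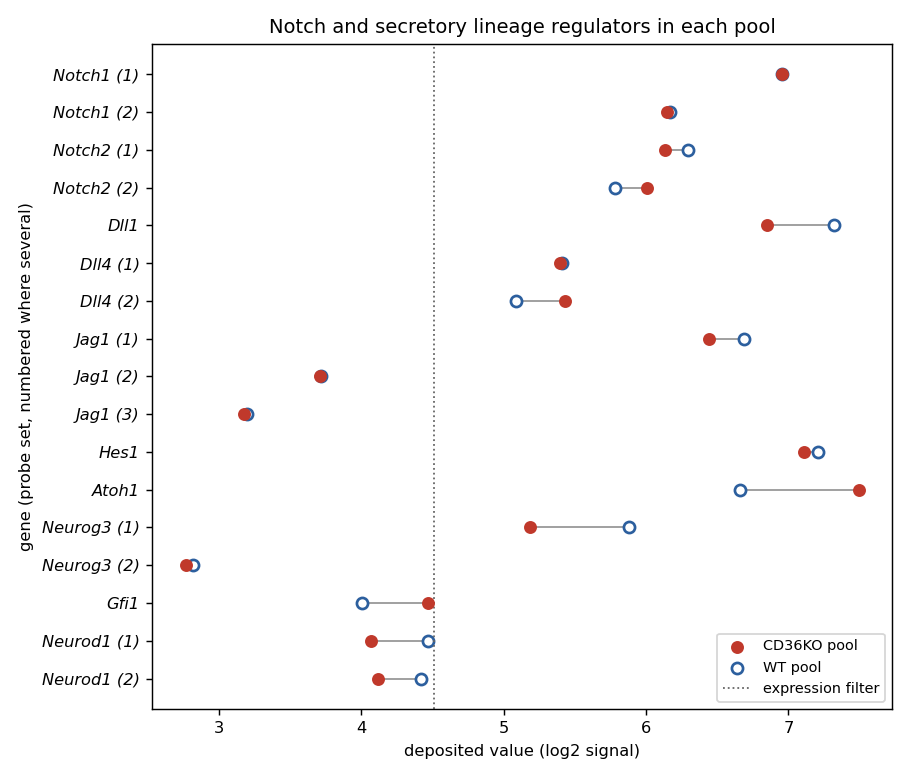
Deposited log2 signal (x axis) of each member probe set (rows) in the CD36KO pool (filled red) and the WT pool (open blue), 1 array each, with the expression filter of 4.51 as a dotted line. Atoh1 and the first Neurog3 probe set show the widest gaps, in opposite directions, and the Notch1 values lie on top of each other.

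Notch1, the receptor with the major role in keeping crypt progenitors undifferentiated, read 6.95 in CD36KO and 6.95 in WT at one probe set, and 6.15 in CD36KO and 6.17 in WT at the other. The log2 differences were -0.0017 and -0.022. Among the 4801 genes with several probe sets above the filter, 2.31% had probe sets that lay closer together than these.

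Notch2, the receptor that acts redundantly with Notch1 in the crypt, read 6.13 in CD36KO and 6.30 in WT at its probe set of highest mean, a difference of -0.17. Its second probe set read 6.01 in CD36KO and 5.78 in WT, a difference of 0.22. The readings thus had opposite signs, as they did for 52.2% of all genes with several probe sets above the filter, and no direction can be given for Notch2. The gap between its probe sets, 0.39, was close to the median gap of 0.35 over those genes.

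Dll1, a Delta ligand carried by secretory progenitors, differed most among the ligands. It read 6.85 in CD36KO and 7.32 in WT at its only probe set, 1.39-fold lower and short of the 1.5-fold mark. Of the 19482 probe sets with a single symbol above the filter, 6.09% were lower by at least as much.

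Dll4, which acts together with Dll1 in the crypt and is also made by blood vessel endothelium, read 5.40 in CD36KO and 5.41 in WT at one probe set, and 5.43 in CD36KO and 5.09 in WT at the other. The first was level and the second 1.27-fold higher. Endothelial markers had a median difference of 0.31, with 2 of 12 at least 1.5-fold higher, Emcn and Pecam1 (1.78-fold each), and their summed signal was 9.55 in CD36KO and 9.32 in WT on the log2 scale. None of the 12 was below the filter in both pools, and Emcn and Pecam1 passed it through CD36KO alone. Flt1 (-0.47) and Cdh5 (-0.11), named after their values were seen, were the 2 of the 12 that were lower in CD36KO.

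Jag1, a ligand of the Serrate type, read 6.44 in CD36KO and 6.69 in WT at its probe set of highest mean, 1.18-fold lower. Its other probe sets read 3.71 and 3.17 in CD36KO, against 3.72 and 3.20 in WT. Those lie below the filter, where signal and background are not separated, so that only 1 of the 3 readings is informative.

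Hes1, the repressor through which Notch holds down Atoh1, read 7.11 in CD36KO and 7.21 in WT. The difference was -0.10, and 71.5% of the probe sets above the filter differed by at least that much in either direction. The Hes1 reading rests on 1 probe set.

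Atoh1, a basic helix-loop-helix activator without which goblet, Paneth and enteroendocrine cells do not form, read 7.49 in CD36KO and 6.66 in WT. Its log2 difference of 0.84 is the largest of the members in either direction. It rests on 1 probe set, above the filter on both arrays, and 2.97% of the probe sets above the filter were higher by at least as much. Gfi1, a zinc finger repressor that keeps Neurog3 off in goblet and Paneth precursors, read 4.47 in CD36KO and 4.005 in WT. It was 1.38-fold higher, but both values are below the filter. Gfi1 is also expressed by blood cells, of which lymphocyte markers had a median difference of 0.29, with Ms4a1 (1.94-fold) and Cd79a (1.46-fold) differing most among them and the T cell genes Cd3e (-0.12) and Cd8a (-0.16) on the other side of 0. The names of these T cell genes were chosen after their values were seen.

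Neurog3, the factor that starts the enteroendocrine programme, read 5.18 in CD36KO and 5.88 in WT at the probe set of highest mean. Of the probe sets above the filter, 2.09% were lower by at least as much. The second Neurog3 probe set read 2.77 in CD36KO and 2.82 in WT, far below the filter. A difference was not detectable there at this signal (-0.05), and the gap of 0.64 between them was wider than in 80.7% of genes with several probe sets above the filter.

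Neurod1, which Neurog3 induces and which is also a factor of the endocrine pancreas, read 4.07 and 4.11 in CD36KO, against 4.47 and 4.42 in WT. It was 1.32-fold and 1.23-fold lower, the same direction at both probe sets, with all values just under the filter. Of 7 pancreatic islet markers measured, 5 were below the filter in both pools. Iapp read 4.43 in CD36KO and 4.94 in WT, and Ins2 read 5.90 in CD36KO and 5.45 in WT.

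**Figure D2:**
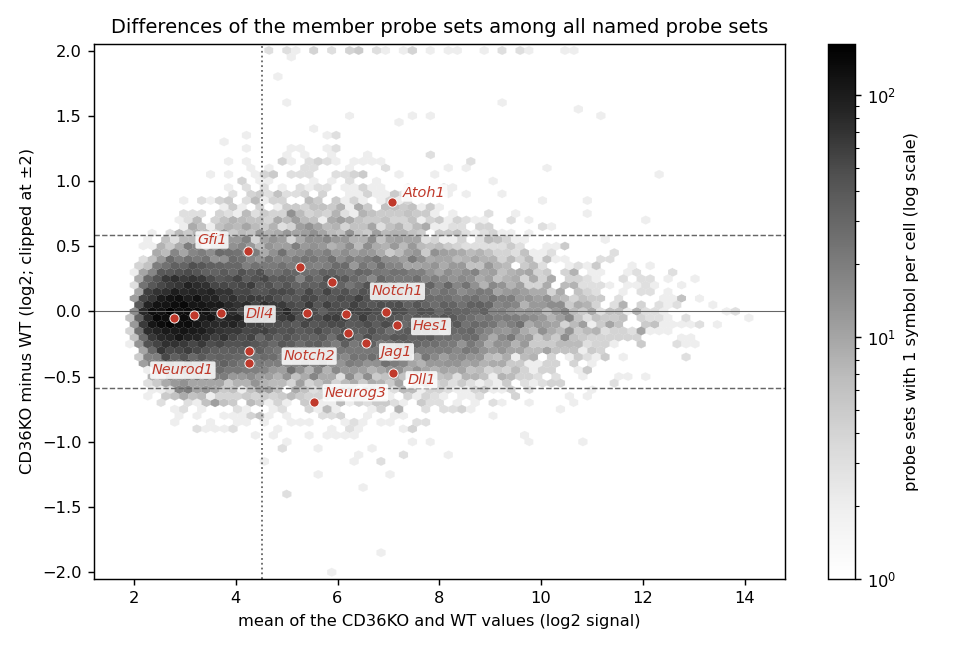
CD36KO minus WT difference (y axis, log2, clipped at ±2) against the mean of the CD36KO and WT values (x axis, log2 signal) for the 34958 probe sets with a single symbol (grey, darker where denser) and the 17 member probe sets (red, the probe set used for each gene labelled). Dashed lines mark 1.5-fold and the dotted line the filter of 4.51; Atoh1 lies above the upper dashed line, Neurog3 below the lower one, and the other 15 between them.

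The promoters of the members past 1.5-fold are shown from 250 bases before to 50 bases after the start of the gene, from RefSeq on build GRCm38.p6, the strand of the gene reading 5′ to 3′. Capitals mark matches, on either strand, to the N-box CACNAG, a sequence that Hes proteins bind, and to the E-box CAGCTG, of the kind bound by Atoh1, Neurog3 and Neurod1 with their partners. The Atoh1 sequence lies on the plus strand at chr6:64728875-64729174 and the Neurog3 sequence on the plus strand at chr10:62132840-62133139.
Atoh1: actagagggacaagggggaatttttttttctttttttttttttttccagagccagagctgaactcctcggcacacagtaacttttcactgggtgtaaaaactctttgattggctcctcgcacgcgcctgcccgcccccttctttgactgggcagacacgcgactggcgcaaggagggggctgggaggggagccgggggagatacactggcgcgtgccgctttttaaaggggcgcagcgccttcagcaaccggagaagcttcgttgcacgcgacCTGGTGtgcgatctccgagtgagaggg
Neurog3: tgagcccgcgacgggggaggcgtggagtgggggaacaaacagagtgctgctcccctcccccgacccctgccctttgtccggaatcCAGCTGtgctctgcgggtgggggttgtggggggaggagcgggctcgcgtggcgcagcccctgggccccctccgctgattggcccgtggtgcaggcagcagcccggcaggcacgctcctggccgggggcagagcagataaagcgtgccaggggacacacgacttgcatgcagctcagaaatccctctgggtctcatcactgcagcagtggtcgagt

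The Atoh1 window holds 1 N-box, on the minus strand at position 24 after the start, and no E-box of this form. The Neurog3 window holds 1 such E-box, at position -165 relative to the start, and no N-box. Of 32851 promoter windows of 300 bases in the table, 42.5% held an N-box and 16.3% the E-box. Promoters were matched for 9 of the 10 members, in 11 windows, of which 6 held an N-box and 3 the E-box. The member without a window was Hes1, the Notch target of the set, so its promoter was not searched. The core TGGGAA that RBPJ binds was in 0 of the 11 windows and in 25.6% of all windows. These matches describe the letters of the windows and not binding.

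The rest of the Notch pathway was read from lists of genes by role. The counts that follow are of genes above the filter, each at its probe set of highest mean, and among all 11981 such genes 5.31% passed 1.5-fold upward and 3.31% downward. Their median difference was -0.01. Of the 7 other receptors and ligands 5 were above the filter, with a median of -0.14. Notch4, a receptor of endothelium, was the only one past 1.5-fold. It read 4.75 in CD36KO and 4.14 in WT, passing the filter through CD36KO alone, and its other probe sets, all below the filter, differed by 0.31 and -0.00028. Jag2 differed by -0.25, with 0.15 at its second probe set.

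The proteins that process and modify receptors and ligands were near level. Of 25 genes 23 were measured, all above the filter, and 0 were at least 1.5-fold higher or lower, with a median of -0.07. The largest differences were those of the gamma-secretase subunits Ncstn (1.34-fold higher) and Aph1b (1.28-fold higher, 0.10 at another probe set). The other Ncstn probe set (-0.23) was below the filter in both pools. The nuclear complex was near level too. Of its 8 genes above the filter 0 were past 1.5-fold, and the median was -0.08. Rbpj, the DNA-binding protein of the pathway, read 7.54 in CD36KO and 7.68 in WT. Spen, a corepressor that binds it, was 1.32-fold higher. The acetyltransferase gene Kat2b was 1.22-fold lower, with 0.22 at another probe set that passed the filter through CD36KO alone.

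Of 10 other genes known to be induced by Notch, 7 were above the filter, with a median of 0.11 (0.0050 with a filter at the 75th percentile), and 1 was past 1.5-fold. That was Ccnd1, a cyclin of the G1 phase that other pathways induce as well, which read 9.30 in CD36KO and 8.64 in WT and was higher at all 3 probe sets, by 0.67, 0.88 and 1.08. Dtx1, which differed most after it, read 7.26 in CD36KO and 7.55 in WT, 1.22-fold lower. Its other probe set (0.05) was below the filter in both pools. Nrarp, a feedback inhibitor of Notch, and Olfm4, a stem cell gene that Notch maintains, were chosen as crypt examples after their values were seen. Nrarp read 7.79 in CD36KO and 7.89 in WT at its probe set of highest mean. At its other probe set it read 6.92 in CD36KO and 6.68 in WT, the opposite direction. Olfm4 read 10.73 in CD36KO and 10.63 in WT. Hes5, Hey2 and Heyl, also seen first and chosen later, were below the filter in both pools.

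Transcription factors listed for the secretory lineages were higher or within 1.5-fold at the probe set of highest mean. Of 12 above the filter, 4 passed 1.5-fold upward and 0 downward, with a median of 0.22 (0.05 for all 13 without the filter). Foxa1, a forkhead factor of goblet and enteroendocrine differentiation, read 7.53 in CD36KO and 6.42 in WT, 2.15-fold higher. Spdef, an ETS factor required for the maturation of goblet and Paneth cells, read 7.08 in CD36KO and 6.17 in WT, 1.89-fold higher. Creb3l4, a factor anchored in the endoplasmic reticulum, read 4.94 in CD36KO and 4.14 in WT, 1.74-fold higher, and passed the filter through CD36KO alone. These 3 have a single probe set each.

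Bhlha15, which builds the secretory apparatus of zymogen-storing cells, read 7.15 in CD36KO and 6.54 in WT, 1.53-fold higher. Its second probe set (0.13) was below the filter in both pools. Bhlha15 is also a gene of pancreatic acinar cells, whose markers were higher at all 6 genes above the filter (Cpa1 5.29-fold and Ctrb1 3.96-fold). Their summed signal was 14.05 in CD36KO and 12.35 in WT on the log2 scale, and Ptf1a, their defining factor, was at 3.80 in both pools, below the filter. The gastric markers Gkn1 (13.3-fold) and Gkn2 (12.4-fold) were higher in the same pool.

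Enteroendocrine transcription factors other than the members were mostly below the filter. Of 12 measured 3 were above it, with a median of -0.11 and 0 past 1.5-fold. Neurod2 differed by -0.11, with 0.17 at another probe set above the filter, and Pax6 by -0.11. Pax6 passed the filter through WT alone, and Pax4 (0.05) through CD36KO alone. A difference in the other 9 was not detectable at this signal. Factors of enterocytes differed in both directions, with a median of 0.26 over 9 genes, of which 2 passed 1.5-fold upward and 0 downward. Cdx1, a caudal homeobox factor, was 1.57-fold higher. Klf5, a factor of crypt cells, differed by 0.58 at one probe set, just past the 1.5-fold mark, and by -0.50 at another. The genes that follow were named after their values were seen. Gata4 (-0.52), Hnf4g (-0.48) and Cdx2 (-0.34) were lower, each with a positive difference of at most 0.24 at another probe set. Hnf4a was higher at all 4 of its probe sets, by 0.26 at that of highest mean and by up to 1.52 at another.

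**Figure D3:**
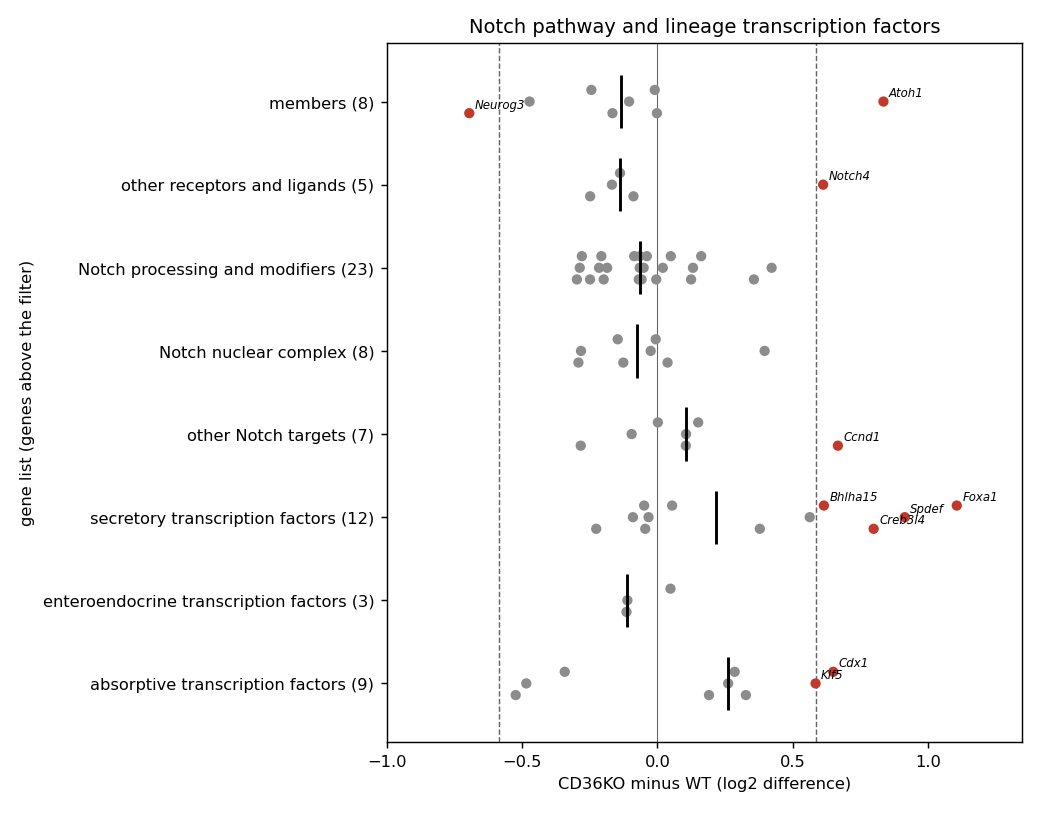
CD36KO minus WT log2 difference (x axis) of each gene above the filter, 1 point per gene at its probe set of highest mean, for the members and 7 lists (rows, number of genes in brackets). Black bars are list medians, dashed lines mark 1.5-fold and red points lie past it; the processing and nuclear lists hold no red point, and the secretory list has 4 on the right.

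The products of the lineages that these factors specify were read from marker lists. Goblet cell products were all above their WT values at the probe set of highest mean, with a median of 0.77 and 4 of 8 at least 1.5-fold higher, among them Clca1 (2.37-fold) and Agr2 (2.20-fold), the disulfide isomerase that folds mucin. Their summed signal was 15.75 in CD36KO and 15.31 in WT on the log2 scale. Paneth cell products had a median of 2.18 with 4 of 5 at least 1.5-fold higher, Pla2g2a (7.08-fold) and the protease Mmp7 (5.21-fold) most. The summed signal of the Paneth products was 14.99 in CD36KO and 13.82 in WT. Lyz1, named after its value was seen, was 1.36-fold higher at its probe set of highest mean. Its log2 differences ranged from 0.42 to 1.07 over 3 probe sets. The goblet products Zg16 (0.02, with -0.08 at another probe set), Fcgbp (0.10) and Tff3 (0.17), named after their values were seen, were close to level. Distal segment markers had a summed signal of 13.64 in CD36KO and 9.99 in WT, Fabp6 (102-fold) and Fgf15 (17.2-fold, from a WT value of 3.47, below the filter) differing most.

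Enteroendocrine products differed in both directions. Of 14 above the filter, 3 passed 1.5-fold upward and 0 downward, 8 were lower than in WT by less, and the median was -0.21. The 3 were Pyy (2.93-fold), Gcg (2.07-fold) and, named after its value was seen, Nts (1.93-fold), hormones of the distal gut. Of the hormones of the proximal gut, Cck (-0.57), Ghrl (-0.55) and Gip (-0.54), also named after their values were seen, lay just inside the 1.5-fold mark on the lower side. Sct, another of them, was lower by less (-0.29). The rest of the list was mixed. Chgb (-0.46), Sst (-0.29), Tph1 (-0.22) and Chga (-0.20) were lower, and Scgn (0.50), Tac1 (0.33) and Scg2 (0.19) were higher. In the same pools the proximal segment markers were lower, with a sum of 11.14 in CD36KO and 12.23 in WT. Among them were Pdx1 (2.40-fold lower, its second probe set below the filter in both pools) and Trpv6 (2.23-fold lower). Pdx1 is itself a factor of proximal endocrine cells.

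Other compartments of the crypt and villus were read in the same way. Among tuft cell markers (median 0.27) 2 of 6 were at least 1.5-fold higher, Siglecf (1.91-fold, also an eosinophil gene) and Avil (1.54-fold). Among crypt stem cell markers (median 0.03) 1 of 6 was at least 1.5-fold higher, Lgr5 (1.82-fold), followed by Axin2 (log2 difference 0.58, just short of the mark). The second Lgr5 probe set (-0.10) was below the filter in both pools. Proliferation markers had a median of 0.08 and enterocyte markers one of -0.06, each with 0 past 1.5-fold. Mcm5 (-0.43) and Cdk1 (0.42) differed most among the proliferation markers, and Lct (-0.48) and Fabp1 (-0.41) among the enterocyte markers. Mcm5 differed by 0.51 at another probe set above the filter, so no direction can be given for it.

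**Figure D4:**
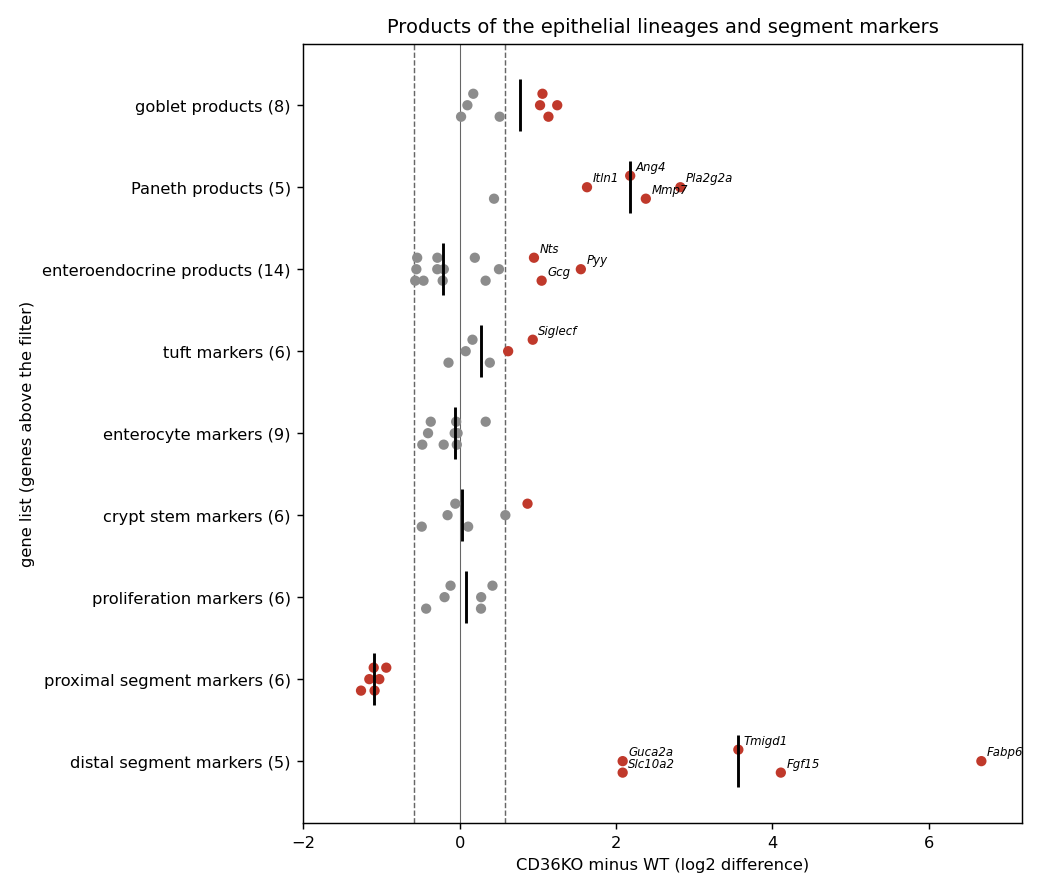
CD36KO minus WT log2 difference (x axis) of each gene above the filter for products of the secretory lineages, markers of enterocytes, stem cells and proliferation, and markers of position (rows, number of genes in brackets). Black bars are medians and dashed lines mark 1.5-fold; goblet and Paneth products lie at or right of 0, enteroendocrine products on both sides, and the segment markers at opposite ends.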

How the data were processed

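The authors deposited log2 values of 45101 probe sets in 1 table, from Affymetrix arrays hybridised with biotinylated cRNA made from 100 ng of pooled RNA per the labels' protocols. The log base was read from the values, which reach 14.2, and the sources used here do not state the summarization or normalization. Both medians were 4.38. The array annotation gave 34958 probe sets 1 symbol, 932 several and 9211 none. CD36KO minus WT was computed at each probe set, and, per gene, at the probe set of highest mean. The filter kept genes whose higher value reached 4.51, the median of that quantity. A difference counted when past 1.5-fold. No test was run, as each genotype had 1 array.

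The members and all lists were chosen with earlier results of these data known. All 10 members were named, then list genes past 1.5-fold (at least 2 per factor or pathway list) and the 2 that differed most per marker list. Tff2, Ptf1a, Epcam and the distal segment gene Slc10a2 were added after their values were seen, as were the genes so marked in the report. Of the 25 other lists, those not described in the report had median log2 differences of 0.73 for smooth muscle (Actg2 and Tagln 0.84 each), 0.08 for neuron and glia (Uchl1 0.36, Elavl3 -0.26) and -0.0075 for neutrophil markers (Cd177 2.06, Mpo -0.40, the latter below the filter). Cd177 passed the filter through CD36KO alone, its WT value lying just under the filter. The alternatives were a quantile normalization, median centring, a lowess trend (fraction 0.3) taken out, other probe set rules, filters and a 2-fold threshold. The steps were tested on simulated data. Software was pandas 2.3.3, statsmodels 0.14.6, NumPy 2.4.6 and matplotlib 3.10.9 under Python 3.11.15.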

Additional observations from a re-analysis of the deposited data

How the results depend on the processing

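At a 2-fold threshold 0 member probe sets were higher and 0 lower in CD36KO. With a filter at the 75th percentile (6.60) the count at least 1.5-fold lower was 0, since the Neurog3 probe set left, and the count higher was 1. Both counts were 1 under median centring, quantile normalization, lowess removal and the filter at the median. Atoh1 kept a difference of 0.81 to 0.84 under every alternative run for it. With its 1 probe set, the probe set rules could not change its value, and only the rescalings of the arrays could. Neurog3 fell short of 1.5-fold with the mean over its probe sets (-0.37) and with the probe set of smallest difference (-0.05). With the mean over probe sets Notch2 (0.03) and Dll4 (0.17) had the opposite sign to their probe set of highest mean. The median of the members ranged from -0.16 to -0.03 and that of the secretory factors from 0.02 to 0.47. For the enteroendocrine factors the median was 0.05 where each gene took its smallest difference, and negative otherwise. In the absence of replicates, a difference or median was held to have moved when it shifted by over 0.28. That is a robust SD of the differences of genes above the filter. A count was held to have moved when it changed by over 1.5-fold or became 0. By these measures 104 of 109 alternative values stayed and 5 moved. The main medians were all smaller in size than 0.28, so they could change sign without counting as moved. All 3 values that changed sign were counted as stayed.

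No paired analysis was possible because each genotype was a single array of a pool. For the same reason no replicate was left out. The table used here has no detection calls, so the signal of Gfi1, Neurod1 and the second Neurog3 probe set, below the filter of 4.51, is not separated from background.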

Other observations

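Several pathway genes that were level at their probe set of highest mean differed by at least 1.5-fold at another one. They were chosen after their values were seen. Hes6, a factor of secretory precursors that opposes Hes1, read 6.59 in CD36KO and 5.98 in WT at one probe set, a log2 difference of 0.61, and differed by -0.23 at the other. Klf4, a factor of goblet cell differentiation, differed by 0.59 at one probe set and by -0.09 at the other. The sheddases Adam10 and Adam17 that cleave Notch differed by 0.70 and 0.59 at 1 probe set each, and by 0.12 and -0.04 at those of highest mean. Mib1, the ubiquitin ligase that activates Delta ligands in the signalling cell, had 0.62 and -0.67 at probe sets that lie below the filter, and -0.21 at the third. Itch, a ligase that marks Notch for degradation, differed by -0.84 at one of its probe sets and by -0.22 at that of highest mean. Its other probe sets went the other way, by 0.15 and, below the filter, by 0.22. Xbp1, a factor of the secretory pathway, ranged from -0.64 to 0.49 over its probe sets. The sources used here do not say which transcripts these probe sets read.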
